A study of Mus musculus with 18 samples.

Results

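The 10 transcripts described here encode proteins that hepatocytes, the main cells of the liver, secrete into the blood: Alb, Apoa1, Apoa2, Apoc3, Apob, Ttr, Ahsg, Fga, Fgb and Fgg. They were matched by gene symbol and all 10 were among the 25124 genes of each count table. The genes were selected on their count-based levels in epididymal fat, where transcripts of this kind were higher in knockout mice, and the question put to them was whether liver RNA was carried into the tissue. Their epididymal values are therefore given as a description without a test, while their values in the other depots were not used in the choice.

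The mice were males on the C57BL/6J background, either wild type (WT) or carrying a global knockout of caspase-6 (C6KO), a protease that cleaves substrates during apoptosis. All animals of both genotypes were fed a high-fat diet (60% of calories from fat) for 12 weeks and were fasted before tissue collection, so no lean or fed group was compared. Inguinal white fat (iWAT, subcutaneous), epididymal white fat (eWAT, visceral) and brown fat (BAT) were profiled by bulk poly(A) RNA sequencing, with 3 libraries per genotype in each depot and 18 libraries in all. The knockout is present in every tissue of the C6KO mice, liver included, and no liver library was analysed here. The diet was started in adult mice, and the labels used here give no age. Nothing in the labels ties the libraries of different depots to the same animals.

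Total counts ran from 16506034 to 19043523 per library in iWAT, from 16717201 to 19139694 in eWAT and from 7803108 to 12428683 in BAT, so a transcript had to be more abundant in BAT to give the same count. Casp6 counts were below all 3 WT libraries in all 3 C6KO libraries of each depot (74 to 124 against 322 to 422 in eWAT), and Ucp1, the uncoupling protein of brown adipocytes, gave at least 41691 counts in each BAT library and at most 102 in any white fat library. Casp6 thus matched the genotype labels, and Ucp1 matched the labels of BAT against white fat. Ucp1 does not tell iWAT from eWAT, as its counts overlapped between them. One library stood apart for the genes described here: iWAT C6KO-3 held 5380 member counts, against 216 to 1083 in the other 5 iWAT libraries. The iWAT comparison of genotypes is therefore given with and without it.

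Albumin (Alb) is the most abundant plasma protein and carries fatty acids, hormones and drugs. Apolipoproteins A-I and A-II are the structural proteins of high-density lipoprotein, apolipoprotein B is the scaffold of very-low-density lipoprotein and chylomicrons, and apolipoprotein C-III slows the clearance of triglyceride-rich particles. Transthyretin (Ttr) carries thyroxine and, through retinol-binding protein, vitamin A. Fetuin-A (Ahsg) inhibits calcification, and the fibrinogen alpha, beta and gamma chains (Fga, Fgb, Fgg) assemble into the precursor of fibrin. In the adult these genes are transcribed mainly in hepatocytes, with Apob, Apoa1 and Apoc3 also made by enterocytes and Ttr by the choroid plexus. Their promoters are known to be bound by liver-enriched factors of the HNF1, HNF4 and C/EBP families.

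Some members are neighbours in the genome (mm10). Fgg, Fga and Fgb lie within 42.1 kb on chromosome 3, from 83007724 to 83049863. Casp6 is on the same chromosome, 46.9 Mb away from this cluster. Apoa1 and Apoc3 lie 2.58 kb apart on chromosome 9, on opposite strands. Alb spans chr5:90460870-90476602 and Apob spans chr12:7977677-8016839. Ahsg spans chr16:22892015-22899451.

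Promoter windows of 300 bases, from 250 before to 50 after the start site, were given by RefSeq (GRCm38.p6) for 8 of the 10 members, Apoc3 and Ttr having none in the table used. Short motifs of liver-enriched factors were searched on both strands, since the members share a cell of origin. The HNF1 half-site GTTAAT was found in 3 of the 8 members, Alb, Fga and Fgb, and in 7.1% of 32817 mouse promoters of the same length. It began 32 bases before the start site in Alb (-32), at -43 in Fga and at -29 in Fgb. These windows are shown because Alb gave the most member counts over the white fat libraries and because the fibrinogen genes are neighbours. The capitals mark each half-site, which lies on the opposite strand in Fga and Fgb and is printed as its reverse complement there, and in Fga also one match to TTGCAA, a C/EBP-type motif.
Alb, chr5:90460620-90460919, plus strand: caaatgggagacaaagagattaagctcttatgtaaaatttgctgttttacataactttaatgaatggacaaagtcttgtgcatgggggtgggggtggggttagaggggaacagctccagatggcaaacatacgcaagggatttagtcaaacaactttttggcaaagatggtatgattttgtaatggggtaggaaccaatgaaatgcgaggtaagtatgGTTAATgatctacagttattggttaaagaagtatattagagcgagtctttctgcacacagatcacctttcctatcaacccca
Fga, chr3:83025903-83026202, plus strand: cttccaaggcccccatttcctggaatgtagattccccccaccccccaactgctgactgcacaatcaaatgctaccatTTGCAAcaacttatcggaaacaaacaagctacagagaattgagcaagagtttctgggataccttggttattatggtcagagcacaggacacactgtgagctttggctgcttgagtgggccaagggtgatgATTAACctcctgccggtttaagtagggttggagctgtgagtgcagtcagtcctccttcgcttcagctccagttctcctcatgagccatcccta
Fgb, chr3:83049814-83050113, minus strand: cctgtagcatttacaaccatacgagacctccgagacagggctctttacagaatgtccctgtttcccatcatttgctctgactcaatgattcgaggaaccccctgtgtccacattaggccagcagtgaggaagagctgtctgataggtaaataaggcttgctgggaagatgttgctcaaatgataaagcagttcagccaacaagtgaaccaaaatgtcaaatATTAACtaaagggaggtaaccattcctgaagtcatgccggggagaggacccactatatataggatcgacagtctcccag
The motif TTGCAA was present in Ahsg, Fga and Fgg and in 6.23% of all promoters, and the TATA motif TATAAA in Apoa2 and Apob and in 13.6% of all promoters. Neither CAAAGTCCA, an HNF4-type motif, nor TTGCGCAA, a C/EBP palindrome, was found in a member window, and they were found in 0.475% and 0.183% of all promoters. A match describes the letters of the window and does not show binding.

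Apoa2 has 2 start sites in RefSeq. The transcript counted in the tables spans chr1:171221564-171226379 and starts 3490 bases before the GENCODE start of Apoa2, inside the exons of Tomm40l, a mitochondrial import gene on the opposite strand whose exons there run from 171221180 to 171222514. Whether the counting used strand was not stated, so reads of the 2 genes in that stretch cannot be told apart. Both windows are shown because the counted transcript begins at the upstream start. The capitals mark TATAAA, 212 bases before the downstream start.
Apoa2 downstream start, chr1:171224804-171225103, plus strand: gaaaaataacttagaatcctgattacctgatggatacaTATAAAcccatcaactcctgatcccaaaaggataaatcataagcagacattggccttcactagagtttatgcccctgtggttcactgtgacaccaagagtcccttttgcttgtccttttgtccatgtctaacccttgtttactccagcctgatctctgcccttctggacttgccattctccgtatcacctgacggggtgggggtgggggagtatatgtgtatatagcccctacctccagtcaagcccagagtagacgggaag
Apoa2 upstream start, chr1:171221314-171221613, plus strand: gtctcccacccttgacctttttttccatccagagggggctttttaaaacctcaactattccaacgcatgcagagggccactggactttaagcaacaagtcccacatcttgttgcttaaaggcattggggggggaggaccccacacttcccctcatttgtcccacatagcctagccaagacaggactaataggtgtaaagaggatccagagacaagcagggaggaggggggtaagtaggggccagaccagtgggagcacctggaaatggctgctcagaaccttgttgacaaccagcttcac
Tomm40l itself was even across genotypes, with 504 to 645 counts in the 6 eWAT libraries (log2 fold change -0.06, SE 0.12). Antisense non-coding transcripts also overlap Ahsg, Fgg and Ttr, and their reads cannot be separated from those of the members either.

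In eWAT the transcripts were low in WT mice and several times higher in C6KO mice. The 10 members summed to 15.1, 11.3 and 17.6 CPM in the WT libraries (CPM, read counts scaled by library size and TMM within a depot) and to 34, 90.4 and 97 CPM in the C6KO libraries. The means were 14.7 ± 3.17 and 73.8 ± 34.6 CPM (SD, n = 3 each), a ratio of 5.03. All 3 C6KO libraries were above all 3 WT libraries, and C6KO-1 was the lowest of the knockouts. In bulk tissue, more cells of a type and more RNA per cell cannot be told apart.

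Alb gave 103, 45 and 127 counts in the eWAT WT libraries and 291, 934 and 944 in the C6KO libraries. Its level was 5.31 ± 2.56 CPM in WT and 40.8 ± 20.3 CPM in C6KO (SD, n = 3 each), an estimated log2 fold change of 2.94. The groups did not overlap. C6KO-1 was the lowest C6KO library for all 10 members.

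Among the apolipoproteins, Apoa1 gave 16, 5 and 20 counts in WT eWAT and 44, 163 and 155 in C6KO eWAT (log2 fold change 3.10). Apob gave 8, 12 and 18 counts in WT against 39, 137 and 80 in C6KO (2.71 on the same scale). Neither gene's groups overlapped. Apoa2 was higher to begin with, at 57, 58 and 53 counts in WT against 75, 149 and 182 in C6KO (1.26). Apoc3 gave 4, 8 and 10 counts in WT against 9, 24 and 26 in C6KO (1.40). Its groups overlapped, since C6KO-1 was below WT-3 in CPM.

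The carrier proteins divided. Ttr gave 5, 1 and 5 counts in WT eWAT and 26, 63 and 42 in C6KO eWAT (log2 fold change 3.50), with no overlap. Ahsg gave 53, 74 and 58 counts in WT against 47, 118 and 136 in C6KO (0.69). Ahsg had the smallest difference of the members, and C6KO-1 was below all 3 WT libraries.

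The fibrinogen chains were near the limit of detection in WT eWAT and reached 54 counts in C6KO eWAT. Fga gave 5, 1 and 2 counts in WT against 17, 46 and 41 in C6KO, a log2 fold change of 3.61 that became 4.43 without WT-1. The estimate for Ttr was larger than that for Fga without WT-3 (3.79 against 3.46) and without C6KO-3 (3.51 against 3.46). Fgb gave 3, 3 and 2 counts in WT against 10, 20 and 54 in C6KO. Fgg gave 2, 0 and 7 counts in WT against 9, 31 and 13 in C6KO. None of the chains overlapped between genotypes, though Fgb and Fgg did not pass the filter on low counts and have no fold change.

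In all, 8 of the 10 members did not overlap between the genotypes in eWAT, the exceptions being Ahsg and Apoc3. Of the 8 members that passed the filter, 6 did not overlap, where 12% of the 14889 genes tested had all C6KO libraries above all WT libraries. The 8 estimates ran from 0.69 to 3.61 with a median of 2.82, and the median of all genes was -0.01. Across all genes, 0.746% were called (adjusted p under 0.05 and at least 1.5-fold) and 0.537% were called higher. These counts describe the contrast that chose the members and nothing is read from them. When each eWAT library was left out in turn, the median of the 8 estimates stayed between 2.52 and 3.18 and all 8 stayed above 0.

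**Figure D1:**
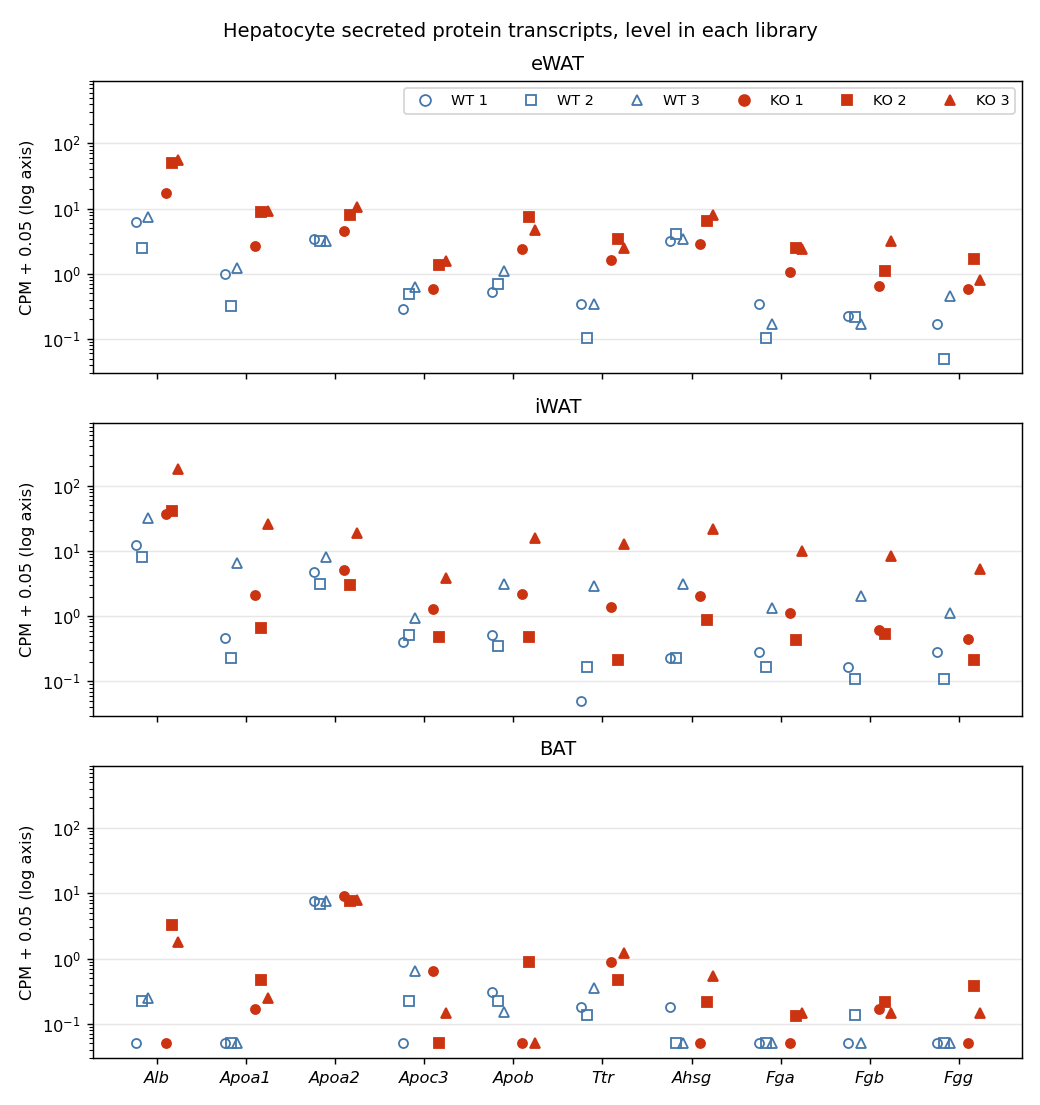
Level of each member in each of the 18 libraries, as TMM-scaled CPM plus 0.05 on a log axis, for WT (open) and C6KO (filled, drawn as KO) in eWAT, iWAT and BAT. In eWAT 8 of the 10 members do not overlap between genotypes, in iWAT the C6KO-3 library is highest for each member, and in BAT only Apoa2 is above 4 CPM.

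In iWAT the members were also higher on average in C6KO mice, but with a wide spread and with no member called on genotype alone. Alb gave 211, 138 and 566 counts in WT iWAT and 656, 737 and 3230 in C6KO iWAT. The groups did not overlap, and the log2 fold change was 2.32 (SE 0.80, edgeR adjusted p = 0.236). Its unadjusted edgeR p was 0.0243, and 1 of the 8 members tested was under 0.05 without adjustment. Alb was also the only member whose C6KO libraries were all above the WT libraries, which held for 10.9% of 14533 genes. With genotype alone in the edgeR fit 0 of the 8 members were called, beside 0.0275% of all genes (4 genes), and DESeq2 called 0 members too. A replicate block in the edgeR fit led to calls of Alb, Ahsg and Apoa1. Deviations of same-numbered iWAT libraries correlated at only 0.0304, 0.0224 and 0.0368. The replicate numbers were thus not shown to mark pairs, and nothing is read from the calls with the block. Without C6KO-3, edgeR called 1278 of 14798 genes and still 0 members.

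The other members overlapped, with WT-3 above C6KO-2 for each of them. Apoa1 gave 7, 3 and 118 counts in WT against 37, 11 and 456 in C6KO (log2 fold change 1.98, SE 1.59, edgeR adjusted p = 0.577). Ahsg gave 3, 3 and 55 counts in WT against 35, 15 and 381 in C6KO (2.81, SE 1.5, edgeR adjusted p = 0.403). WT-3 and C6KO-3 were each the highest library of their genotype for both genes.

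Apob gave 8, 5 and 55 counts in WT iWAT and 38, 8 and 276 in C6KO iWAT, and Ttr gave 0, 2 and 52 against 24, 3 and 225. Fga gave 4, 2 and 23 against 19, 7 and 176. Their log2 fold changes were 2.23, 2.22 and 2.77. Fgb gave 2, 1 and 36 counts in WT against 10, 9 and 147 in C6KO, and Fgg gave 4, 1 and 19 against 7, 3 and 94, and both were below the filter. In C6KO-2 the fibrinogen chains, Apob and Ttr thus gave between 3 and 9 counts. Apoa2 gave 79, 53 and 143 counts in WT against 91, 55 and 329 in C6KO, with the smallest estimate (0.76), and Apoc3 gave 6, 8 and 16 against 22, 8 and 66 (1.64).

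A single library carried much of this difference. The 8 iWAT estimates had a median of 2.22 with all libraries, beside 0.03 over all genes. Without C6KO-3 the median was 0.12 and 4 of the 8 estimates were above 0. Alb then had a log2 fold change of 1.13 (edgeR adjusted p = 0.257), and Apoa1 (-0.86), Ttr (-0.45), Apoa2 (-0.39) and Apob (-0.02) were below 0. Without WT-3 the median was 4.16. The summed member level was 19.1, 12.7 and 60.2 CPM in WT and 52.6, 46.8 and 304.6 CPM in C6KO, a ratio of 4.39 that became 1.62 without C6KO-3 and 8.48 without WT-3.

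**Figure D2:**
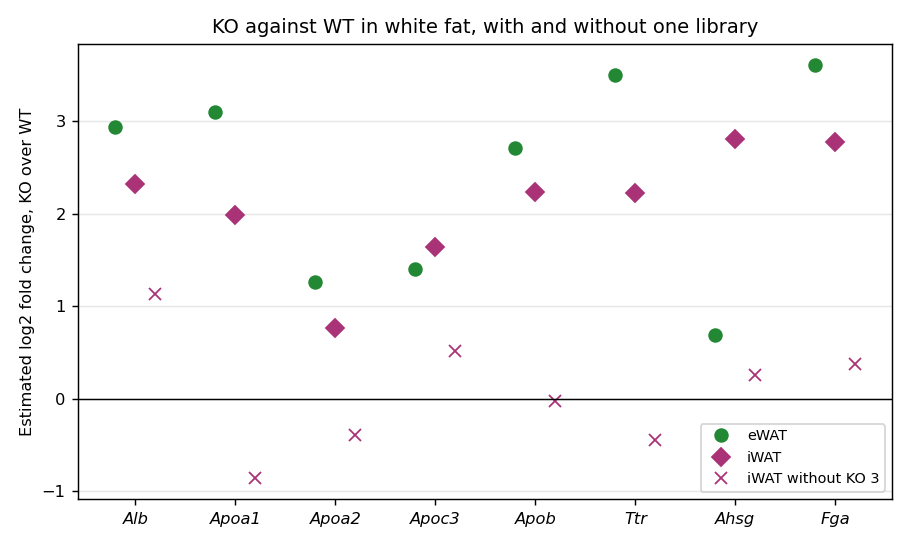
Estimated log2 fold change of C6KO over WT for the 8 members that passed the low-count filter in both white depots, in eWAT (circles), in iWAT (diamonds) and in iWAT without the C6KO-3 library (crosses). The iWAT estimates run from 0.76 to 2.81 with all libraries and from -0.86 to 1.13 without that library, and the eWAT estimates from 0.69 to 3.61.

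In BAT all members except Apoa2 were low, with at most 12 counts in a library apart from Alb in C6KO mice. Alb gave 0, 2 and 2 counts in WT BAT and 0, 39 and 18 in C6KO BAT. Pooled over libraries this is 57 against 4 counts, a ratio of 13.3 with a 95% counting interval of 4.91 to 50.4, which covers counting error only and not the spread between animals. Without C6KO-2, which held 39 of the counts, the ratio was 6.99 (2.3 to 28.4). The groups overlapped, C6KO-1 having no Alb count. Ttr gave 1, 1 and 3 counts in WT against 7, 5 and 12 in C6KO, a pooled ratio of 4.47 (interval 1.67 to 15.0) that became 7.41 without WT-3. Apoa1 was not counted in any WT library and gave 1, 5 and 2 counts in C6KO, at least 2.48-fold higher when the WT libraries together are set at 3 counts, and without C6KO-2 or a WT library the bound fell to 1.81 or less or could not be given. Fgb gave 0, 1 and 0 counts in WT against 1, 2 and 1 in C6KO.

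Apoa1, Ttr and Fgb were the 3 members whose C6KO libraries were all above the WT libraries in BAT, and none of the 3 passed the filter. Among the genes that did, 8.07% had such groups. Apob (2, 2 and 1 against 0, 10 and 0 counts), Apoc3 (0, 2 and 6 against 5, 0 and 1), Ahsg (1, 0 and 0 against 0, 2 and 5), Fga (0, 0 and 0 against 0, 1 and 1) and Fgg (0, 0 and 0 against 0, 4 and 1) overlapped. Without Apoa2 the other 9 members together gave 4, 8 and 12 counts in WT against 14, 68 and 41 in C6KO, a pooled ratio of 4.77 (counting interval 3.06 to 7.74). Both groups stood below the lowest white fat library in these 9 members, with 0.517 to 5.63 CPM in BAT against 8.14 CPM or more, each depot having been scaled on its own.

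Apoa2 was different from the rest in BAT. It gave 58, 77 and 76 counts in WT against 76, 90 and 81 in C6KO, 7.29 ± 0.442 and 8.11 ± 0.791 CPM (SD, n = 3 each). It was the only member tested there (log2 fold change 0.15, SE 0.22, edgeR adjusted p = 0.814) and was not called, where 1.24% of 13595 genes were, with 0 members at an unadjusted p under 0.05 by edgeR. DESeq2, which used no such filter, called 0 members and had 1 under an unadjusted p of 0.05. Per kilobase, WT Apoa2 was at 8.49 CPM in BAT, 6.1 in iWAT and 3.73 in eWAT, each depot scaled on its own. Its overlap with Tomm40l, which gave 658 to 873 counts in BAT, was not resolved, and the part of those reads in the Apoa2 count was not tested.

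The depots were compared among WT libraries for the 6 members counted on the same transcript in all tables (Alb, Apoa1, Apoa2, Apob, Fgb and Ttr). Alb was lower in BAT than in iWAT, 0 to 2 counts against 138 to 566 (log2 fold change -6.80, SE 1.41, edgeR adjusted p = 0.00148), and was the only member called. Among all 14175 genes 38.8% were called and 18.8% were called lower in BAT. Apoa1 was at 0 in BAT and at least 24.3-fold higher in iWAT, or at least 2.91-fold without iWAT WT-3, which held 118 of the 128 counts, and missed the threshold (edgeR adjusted p = 0.0533). Apob (-2.72, edgeR adjusted p = 0.156), Fgb (0.0856), Ttr (0.261) and Apoa2 (0.59, 0.356) did not pass either. Without iWAT WT-1, WT-2, C6KO-2 or C6KO-3, which all enter the joint fit, 2, 3, 2 and 3 members were called, Apoa1 being added each time and Fgb where there were 3, and DESeq2 called the same 3. Without iWAT WT-3 the Ttr estimate turned to 1.54. The effect of the knockout was not shown to differ between BAT and iWAT for any of the 6, with edgeR adjusted p from 0.842 to 1 and 0 members at an unadjusted p under 0.05 by edgeR or DESeq2, beside 0.212% of all genes called.

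Counts of one member relative to another within a library do not depend on depth. In eWAT, Apoa1 gave 15.5, 11.1 and 15.7 counts per 100 Alb counts in WT against 15.1, 17.5 and 16.4 in C6KO. The C6KO values had intervals of 10.8 to 20.8, 14.7 to 20.6 and 13.8 to 19.5. The WT values, on 16, 5 and 20 Apoa1 counts, had wider intervals of 8.56 to 26.4, 3.44 to 27.9 and 9.3 to 25.4. The intervals of all 6 eWAT libraries overlapped for Apoa1 while Alb varied from 45 to 944 counts. With WT intervals this wide, the overlap does not show an equal ratio in the genotypes. This did not hold for every member. Apob gave 7.77, 26.7 and 14.2 counts per 100 Alb counts in WT eWAT and 13.4, 14.7 and 8.47 in C6KO eWAT, and the intervals of C6KO-2 (12.2 to 17.6) and C6KO-3 (6.66 to 10.7) did not overlap. Fgb gave 2.14 (1.3 to 3.33) in C6KO-2 and 5.72 (4.27 to 7.53) in C6KO-3, which did not overlap either. In iWAT the Apoa1 ratio was 20.8 (16.9 to 25.5) in WT-3 and 14.1 (12.8 to 15.6) in C6KO-3. For Apoa1 it was 3.32, 2.17, 5.64 and 1.49 in WT-1, WT-2, C6KO-1 and C6KO-2. Those 4 intervals lay below those of WT-3 and C6KO-3.

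Alb therefore took different shares of the member counts. It made up 40.2%, 21.7% and 42.1% of them in the eWAT WT libraries and 51.3%, 55.4% and 56.4% in the eWAT C6KO libraries. In iWAT the shares were 65.1%, 63.9% and 52.3% in WT-1, WT-2 and WT-3, and 69.9% and 60.0% in C6KO-1 and C6KO-3. In iWAT C6KO-2 the share was 86.1% (83.6 to 88.3), where Alb gave 737 counts beside 11 of Apoa1, 8 of Apob and 3 of Ttr. iWAT C6KO-2 had more Alb than C6KO-1 and fewer counts of each other member than C6KO-1.

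Ahsg went the other way in WT eWAT. It gave 51.5, 164.4 and 45.7 counts per 100 Alb counts there, against 16.2, 12.6 and 14.4 in C6KO eWAT. In iWAT the values ran from 1.42 to 11.8. The WT eWAT libraries thus held more Ahsg per Alb count than the other white fat libraries. Apoa2 also varied against Alb, from 7.46 counts per 100 in iWAT C6KO-2 to 128.9 in eWAT WT-2.

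**Figure D3:**
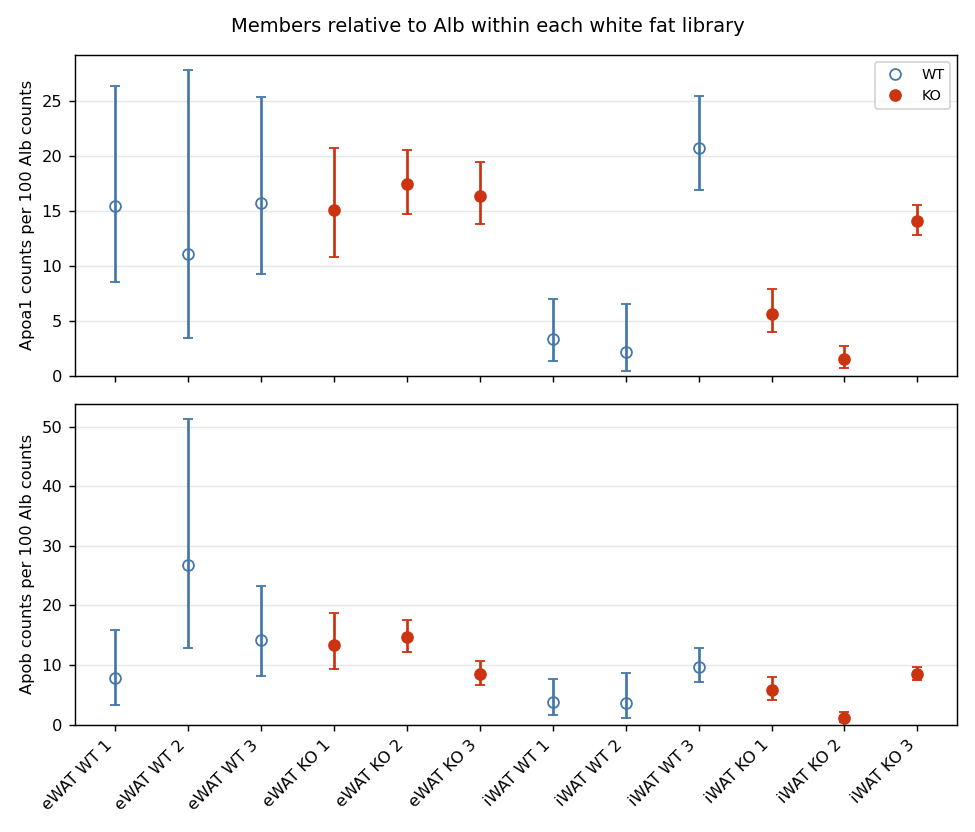
Counts of Apoa1 (top) and Apob (bottom) per 100 Alb counts in each of the 12 white fat libraries, with exact 95% binomial intervals that cover counting error only; C6KO is drawn as KO. The 6 eWAT libraries lie between 11.1 and 17.5 for Apoa1 and between 7.77 and 26.7 for Apob, and 4 of the 6 iWAT libraries lie below 6 for both.

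Genes that hepatocytes use inside the cell were set beside the secreted ones. Of 50 such genes, 42 had a mean under 1 CPM in BAT, a subset chosen after the values were seen, since the full list also holds genes that fat expresses and summed to 1935.3 CPM in iWAT C6KO-2. The 42 summed to 13.7, 8.03 and 9.68 CPM in WT eWAT and to 21.5, 53.3 and 55.4 CPM in C6KO eWAT. In iWAT they summed to 7.6, 3.81 and 21.5 CPM in WT and 20.9, 12.2 and 123.4 CPM in C6KO. The libraries highest in the members were also the highest in these 42 genes, namely iWAT C6KO-3, eWAT C6KO-3 and eWAT C6KO-2. This order did not hold over all 50 genes. Those summed to 420.6, 368.3 and 308.4 CPM in eWAT C6KO-1, C6KO-2 and C6KO-3, and to 897.3 CPM in iWAT C6KO-3. In BAT the sums were 3.49, 3 and 3.1 CPM in WT and 4.26, 8.45 and 4.87 CPM in C6KO. Low sums there follow from the choice of the subset, and nothing is read from them. All 50 genes summed in BAT to between 244.9 and 272.9 CPM in WT and between 377.8 and 490.6 CPM in C6KO. The part that such cells or their RNA had in the member counts was not tested.

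Single intracellular genes are given as a description. Mat1a was named because its pattern is among those most like the members, so that it followed them is no separate result. Mat1a, which makes S-adenosylmethionine in liver, gave 17, 5 and 20 counts in WT eWAT and 51, 212 and 175 in C6KO eWAT. Cps1, the entry enzyme of the urea cycle, gave 12, 4 and 6 against 23, 70 and 71. Hnf4a, a defining hepatocyte transcription factor, gave 0, 0 and 2 against 6, 33 and 16, and Asgr1, a hepatocyte surface receptor, gave 0, 0 and 0 against 2, 10 and 7. In iWAT C6KO-3 the counts were 322 for Mat1a and 162 for Cps1. Cyp2e1 did not follow this order of libraries, with its highest iWAT count (30195) in C6KO-2 and its highest eWAT count (2812) in C6KO-1. Its C6KO libraries were still above its WT libraries in each depot (log2 fold change 1.5 in eWAT, 2.64 in iWAT and 3.53 in BAT, not called). Cps1, Hnf4a, Asgr1 and Cyp2e1 were named after their values were seen.

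Across the whole lists, 0 or 1 genes of each related list were called in eWAT, beside 0.537% called higher among all 14889 genes tested. The lists are too short for such counts to be read against that share. Of the 50 intracellular genes, 22 were tested in eWAT, 0 were called and the median log2 fold change was 0.94 (2.20 over the 14 tested among the 42). Of 61 other hepatocyte secreted genes, 32 were tested in eWAT with a median of 0.36, and 1 was called higher. The 48 of them with a mean under 1 CPM in BAT had a median of 0.55 over 19 tested and overlapped between genotypes, with sums of 53, 45.7 and 41.3 CPM in WT eWAT and of 42, 102.2 and 89.3 CPM in C6KO eWAT. That gene was Serpina1d, an alpha-1-antitrypsin paralog whose reads are shared with near-identical copies (5, 2 and 4 counts in WT, 20, 55 and 35 in C6KO, log2 fold change 3.25, SE 0.57, edgeR adjusted p = 0.0438), and it was called in 0 of 6 fits that left out a library (edgeR adjusted p from 0.0525 to 0.19). The acute phase genes (15 tested, 0 called, median 0.02), the clotting and fibrinolysis genes (15, 0, -0.01) and the liver-enriched transcription factors (6, 0, 0.15) were near the median of all genes. Only 6 of the 15 factors were tested, among them Cebpa at 468.0 to 589.4 CPM in eWAT, and Hnf4a was not. The acute phase list also holds Hp, at 1545.7 to 6258.6 CPM in eWAT. No subset under 1 CPM in BAT was made for these lists, so their medians do not describe the low genes. Of 21 lipoprotein handling genes tested, 1 was called higher, Gpihbp1, which anchors lipoprotein lipase to capillaries and was called in 3 of the 6 fits without a library, those that kept every WT library, and the median was 0.11.

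In iWAT 0 genes of these lists were called with all libraries. The median was 0.52 over 32 other secreted genes, 1.48 over 15 intracellular genes, -0.66 over 14 acute phase genes, 0.18 over 17 clotting genes and 0.12 over 22 lipoprotein genes. Without C6KO-3 these medians were -0.32, 0.19, -1.03, 0.01 and 0.03, and 5, 4, 8, 4 and 3 genes of the lists were called, beside 1278 of all genes.

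Markers of other cells and tissues were checked, of which only enterocytes are named above as making some of the members. Choroid plexus markers were not checked. Of 12 enterocyte genes 4 were at 0 in all 6 eWAT libraries, and 2 were tested there with 0 called and a median of 1.98. The tested genes were Apoa4 and Anpep, an aminopeptidase that other cells also carry, which gave 8453 to 10314 counts in each eWAT library. Sis and Alpi, both defining brush border enzymes, were at 0 in all 18 libraries. Lct, another, gave 1, 0 and 4 counts in WT eWAT and 0, 1 and 0 in C6KO eWAT. Fabp2, the intestinal fatty acid-binding protein, gave 0, 0 and 0 counts in WT eWAT and 4, 3 and 3 in C6KO eWAT. Apoa4, made by enterocytes and hepatocytes, gave 9, 0 and 4 against 17, 117 and 100 there. Sis, Alpi, Lct and Fabp2 were named after their values were seen. The epididymis and testis list summed to between 0.406 and 1.45 CPM in eWAT with no gene tested, and 2 of 12 pancreatic acinar genes and 3 of 10 kidney tubule genes were tested with 0 called. The mesothelial list, of the cells that line the peritoneal cavity, had 10 genes tested in eWAT with 0 called and a median of -0.68. The skeletal muscle list had 5 genes tested in eWAT with 0 called and a median of 0.01. It summed to 46.4 to 87.9 CPM in WT eWAT and 50.9 to 176.0 CPM in C6KO eWAT. In BAT its sums were uneven, from 41.1 to 33617.0 CPM in WT and from 385.6 to 6540.1 CPM in C6KO. The erythroid list, a measure of blood in the tissue, had a median of 0.88 in eWAT and -1.47 in iWAT, and summed to 54.5 to 199.0 CPM in WT eWAT and 86.4 to 467.6 CPM in C6KO eWAT, with 0 of 5 genes called in either depot.

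**Figure D4:**
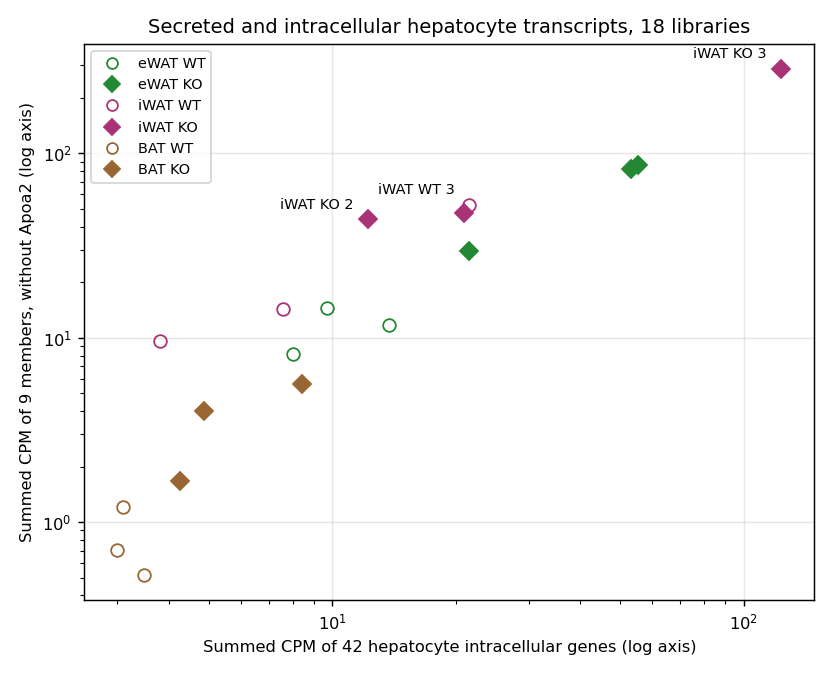
Summed level of the 9 members other than Apoa2 (vertical) against that of 42 hepatocyte intracellular genes with a mean under 1 CPM in BAT (horizontal), 1 point per library on log axes, with depot by colour and genotype by symbol; C6KO is drawn as KO. BAT libraries lie lowest on the vertical axis (0.517 to 5.63 CPM) and overlap WT iWAT and WT eWAT libraries on the horizontal one (3 to 8.45 CPM against 3.81 CPM or more in white fat), iWAT C6KO-3 lies highest on both (123.4 and 286.0 CPM), and iWAT C6KO-2 has 43.8 CPM of members at 12.2 CPM of intracellular genes.

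The genes most like the members over the 18 libraries were ranked by Pearson's r with the mean log2 CPM of the 6 same-transcript members, among 14169 genes. Among the first 10 were Gc (r = 0.96), Mat1a (0.96), Mug1 (0.951), Apoa4 (0.951), Nat8f2 (0.946), Ces3a (0.941), Pzp (0.938), Serpina1b (0.936) and Fabp1 (0.935). Without iWAT C6KO-3 the r of these genes ran from 0.911 to 0.958. Gc is the vitamin D-binding protein, Mug1 and Pzp are protease inhibitors of the macroglobulin family, and Fabp1 is the liver fatty acid-binding protein. Over the 6 eWAT libraries 101 genes (0.713%) had r above 0.95. Depot and library effects are shared by all these points.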

How the data were processed

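Per the labels and the study's methods, the authors aligned poly(A) reads with STAR to mm10 and deposited raw counts per gene over exons, made with HOMER, in 1 table per depot. Versions, annotation and strand setting are not given in the sources used here, and 22505 genes carry the same transcript in the 3 tables. The submitters' processing notes also name DESeq2. All p-values measure the spread between libraries. Groups came from the labels, and each depot from its table.

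Counts were fitted here per depot with edgeR 4.0.16 (R 4.3.3; filterByExpr, TMM, robust quasi-likelihood test), with Benjamini-Hochberg adjusted p under 0.05 and at least 1.5-fold as a call. A joint fit over the 18 libraries served the depot contrasts. DESeq2 1.42.0, other scalings, other filters, a replicate block and leaving out each library were the alternatives. CPM are TMM-scaled, and intervals are exact binomial (95%) and cover counting error only. Scripts were tested on simulated data. Plots were made with matplotlib 3.10.9.

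The members and gene lists were chosen with earlier results of these data known. Beyond the members, the genes named were, per list, up to 4: the 2 highest per kilobase in eWAT and the 2 with the largest eWAT change at a mean of at least 1 CPM. Only those that bear on a result are printed. The 10 genes most like the members and Casp6 were also named, except 1 that is not reported here, and others are said to be chosen after their values were seen.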

Additional observations from a re-analysis of the deposited data

How the results depend on the processing

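For the main counts and ratios 74 alternatives stayed within 1.5 times or the spread between replicates, and 18 moved. The other results, mostly single genes, stayed in 506 alternatives, changed size in 23, passed the threshold in 13 and turned direction in 17. Whether the replicate numbers mark paired animals cannot be settled from 3 libraries per group. Deviations of same-numbered libraries correlated at 0.0304, 0.0224 and 0.0368 in iWAT and at 0.161, -0.104 and 0.159 in eWAT. In BAT the correlations were -0.297, -0.603 and -0.244. With a replicate block 3 members were called in iWAT in place of 0 (Alb, Ahsg and Apoa1, edgeR adjusted p = 0.0119, 0.0423 and 0.0457), all genes called in eWAT were 414 in place of 111, and 2 members were called between WT BAT and iWAT in place of 1, with Ttr there at 0.2. All genes called in eWAT were 618 with DESeq2, 67 with total counts as the only scaling and 321 with no low-count filter, and from 2 to 347 with a library left out (2, 4 and 4 without WT-1, WT-2 and WT-3, and 26, 347 and 33 without C6KO-1, C6KO-2 and C6KO-3). Between WT BAT and iWAT, DESeq2 called 3 members, total counts 2, and leaving out a library 1 to 3. With an iWAT library left out, Apoa2 ran from -0.39 to 1.2, Apoa1 from -0.86 to 4.98, Apob from -0.02 to 3.96 and Ttr from -0.45 to 6.17 in iWAT, lowest without C6KO-3 and highest without WT-3. Ttr between WT BAT and iWAT ran from -3.09 to 1.54 (without iWAT WT-3). The uncalled difference of knockout effects between BAT and iWAT turned direction with a library left out for Fgb (-3.3 to 2.2), Ttr (-3.99 to 2.59), Apoa2 (-1.05 to 0.53) and Apob (-6.85 to 0.8), with 0.13, 0.19 and 2.13 also for Fgb and 0.27, 0.48, 0.51 and 0.63 also for Ttr. The causes were not tested. The summed BAT ratio, 1.47, became 4.66 without Apoa2, and these sums, the subset of genes under 1 CPM in BAT, and the pooled ratios and gene lists without a library were added after seeing the data. In BAT 9 of the 10 members fell under the low-count filter.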

Other observations

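Apoa5, an apolipoprotein that promotes triglyceride clearance and neighbours Apoa1 and Apoc3, is not among the members and gave 2, 0 and 2 counts in WT eWAT and 9, 35 and 40 in C6KO eWAT. In iWAT its counts were 0, 0 and 18 for WT against 11, 2 and 86 for C6KO, and all 6 BAT libraries had 0. Cyp3a11, a hepatic drug-metabolising enzyme, gave 7, 0 and 5 counts in WT eWAT and 14, 28 and 30 in C6KO eWAT, and 183 counts in iWAT C6KO-3. Fetub and Kng2, neighbours of Ahsg on chromosome 16, gave 27, 30 and 12 and 97, 99 and 51 counts in WT eWAT and 9, 19 and 34 and 33, 32 and 106 in C6KO eWAT. These genes were named after their values were seen, and none was called where it was tested. Apoa5 fell under the low-count filter in eWAT and was not tested there.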
